A study of Mus musculus with 36 samples.

Results

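Maze training was compared across all 36 hippocampal RNA sequencing libraries of the series, 15 from trained and 21 from naive mice, by averaging the trained minus naive difference over 4 genotypes with equal weight. The rule read only the training state and genotype in the sample titles and took 36 of 36 libraries, so no measured value chose them. All mice were females of 6 months on a C57BL/6 background that carried Pvalb-IRES-Cre and the RiboTag allele (genotype PV_Cre;RiboTag+/-), which tags ribosomes in parvalbumin interneurons. The libraries hold the input fraction, RNA of the cleared lysate of both hippocampi taken without selection for the tag, and therefore of all hippocampal cells. Mice labelled Control (here WT) carried nothing further and gave 6 naive and 5 trained libraries. APP mice added the Sw,Ind transgene of the J9 line (5 naive, 3 trained), Tau mice the P301S transgene of the PS19 line, driven by the prion protein promoter (4 naive, 4 trained), and APP/Tau mice both (6 naive, 3 trained).

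Every mouse, naive or trained, was handled for 3 min on 3 days. Naive mice then stayed in the home cage. Trained mice swam 6 trials a day for 5 days in the Morris water maze, a pool of opaque water in which the animal learns the position of a hidden platform, were given a probe trial 24 h after the last training trial, and were killed 2 h after the probe. A naive mouse therefore differs from a trained one in swimming and in removal from the home cage as well as in learning, and no group that swam without a platform was analysed here. No label ties a library to a single animal. The p-values therefore rest on the spread among libraries, part of which may be technical.

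Neuronal activity in the hippocampus induces immediate early genes such as Fos, Arc, Egr1 and Npas4 within minutes, followed by delayed genes such as Bdnf, and most of the early transcripts decay within hours. Swimming and handling also release corticosterone, which acts through the glucocorticoid receptor on genes such as Fkbp5, Sgk1, Tsc22d3 and Per1. The same tissue runs a circadian clock in which Clock and Arntl (Bmal1) drive Per and Cry genes, whose products repress Clock and Arntl in turn, and in which Rev-erb and Ror receptors set the level of Arntl. These are the gene groups around which the training difference is described.

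Depth was 69.2 to 124.8 M counts per library (M for mega, median 82.7 for trained and 87.5 for naive). Hippocampal markers were present in all 36 libraries, with the dentate gene Prox1 at 60.2 to 146 and the CA1 genes Wfs1 at 82.7 to 194 and Fibcd1 at 100.5 to 191 CPM (counts per M counts of the scaled library total). Prnp, which lends its promoter to the tau transgene, separated 16 of 17 Tau-labelled libraries (1423 to 2142 CPM) from the 19 others (728 to 879), and the library labelled Tau trained 4 stood at 846. The choroid plexus score, which is the mean log2 CPM of its marker list less the mean over all libraries, ran from -2.29 to -1.38 in 15 libraries, from 1.03 to 2.40 in 17 and from -0.13 to 0.61 in the other 4. The library labelled WT trained 4 had the highest striatal score, 2.12 against -0.43 to 0.39 in the other 35. The labels also number the libraries from 1 to 36. Of those numbered 1 to 18, 11 were trained and 7 naive, and of those numbered 19 to 36, 4 were trained and 14 naive. What the number stands for is not given, but it moves with training. Values with library number as a covariate, or within each set of 18, are therefore given beside some of the results that moved. No naive APP library is numbered 1 to 18 and no trained Tau library 19 to 36. Within the lower numbers APP therefore adds nothing to the training difference, and within the higher ones Tau adds nothing. Between these sets, library number and genotype cannot be told apart. Of the genes named in the text with an unadjusted p under 0.05, 69 were followed with library number as a covariate. Of these 69, 27 still had such a p and 68 had the same sign. The value lay nearer 0 in 62, and in 30 of them it was more than 1.5 times smaller. Over all genes tested, the count at such a p was 1879 without the covariate and 659 with it.

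Averaged over the 4 genotypes, no gene passed the test between trained and naive hippocampus. Of 25382 genes tested, edgeR's quasi-likelihood test called 0 at a Benjamini-Hochberg adjusted p under 0.05, a share of 0%. Fabp7, the brain fatty acid-binding protein of astrocytes and neural progenitors, whose mRNA is known to cycle over the day in mouse brain, had the smallest p (9.39e-06, adjusted p = 0.238). 1879 genes (7.4%) had an unadjusted p under 0.05, 945 of them higher in trained (3.72% of genes tested) and 934 lower (3.68%). limma-voom with quality weights also called 0 genes, with 2527 at an unadjusted p under 0.05. DESeq2 called 7 of the same genes, 2 higher and 5 lower, with 2069 at an unadjusted p under 0.05. These 7 were Fabp7, B3glct, Slc20a2, Ccdc60 and 2810407A14Rik lower and Pitpnm2 and Fmo2 higher. The median difference over all genes was 0.0025 on the log2 scale, with 51.3% of genes above 0 and 48.7% below.

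In the main fit, which holds no library number, the intervals of most differences were narrow. They do not cover a difference that moves with library number. For the 16515 genes that averaged 0 or more in log2 CPM, the median standard error of the averaged difference was 0.0512 and the median half-width of its 95% interval was 0.10, both on the log2 scale. In 96.5% of these genes the whole interval lay within 1.5-fold either way, and in 99.1% within 2-fold. Including genes at lower levels, the shares were 76.2% and 91.7%. Among the genes with an unadjusted p under 0.05, the median absolute difference was 0.12 for the 945 that were higher and 0.33 for the 934 that were lower. 63 and 239 of them exceeded 1.5-fold. The same direction in all 4 genotypes was seen in 583 of the 945 and 512 of the 934, against 7% and 6.02% of all genes tested, but an average over the same genotypes selects for this.

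**Figure D1:**
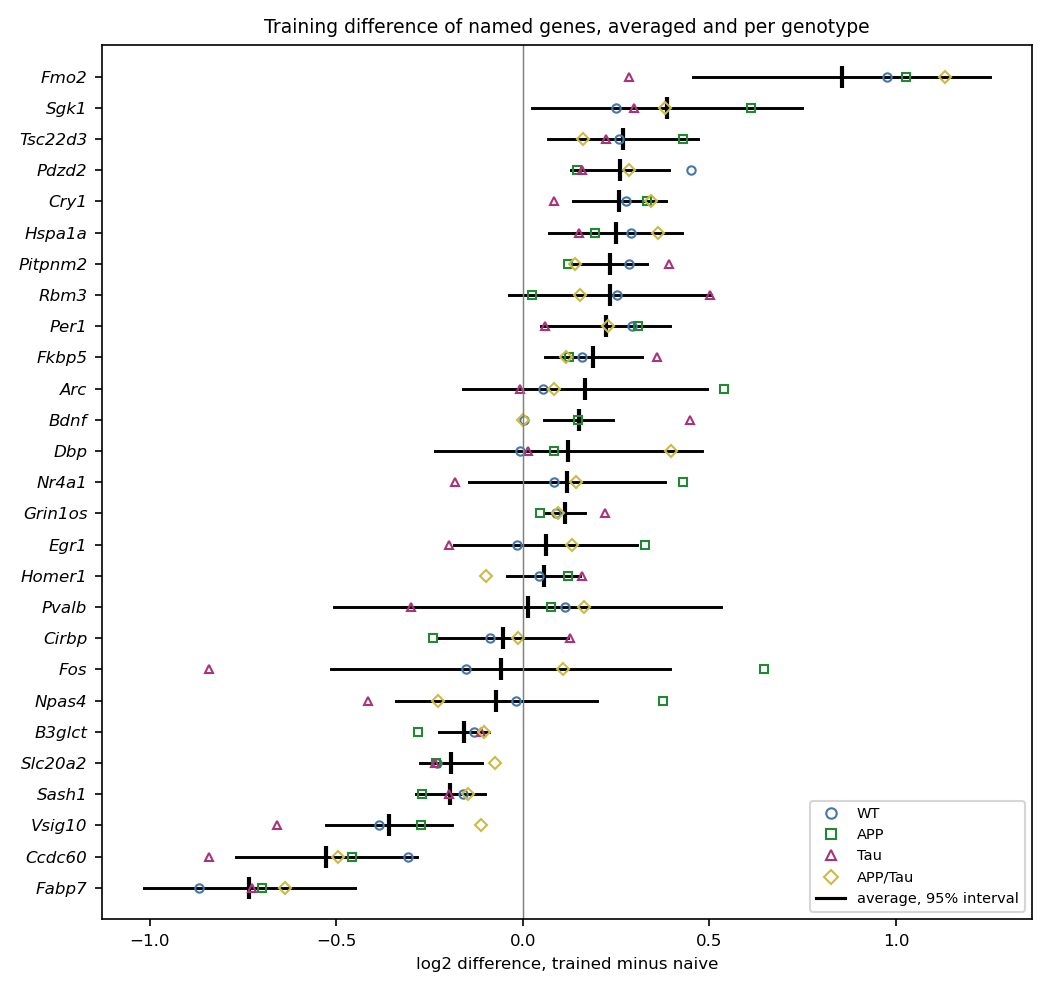
Log2 difference between trained and naive hippocampus for named genes, with the average over 4 genotypes and its 95% interval (black) and the value in each genotype (symbols) on the horizontal axis. Fabp7 at -0.73 and Fmo2 at 0.85 lie at the ends, the intervals of Fos, Npas4, Egr1, Homer1 and Arc include 0, and none of the genes passed the test across all genes.

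Fabp7 stood at 10.8 to 27.1 CPM in the 21 naive libraries (median 18.8) and at 6.55 to 18.2 CPM in the 15 trained ones (median 11.4). All 15 trained libraries lay below the naive median, although the ranges overlapped. In WT the trained libraries stood at 6.55, 7.87, 13.5, 12.7 and 9.07 CPM, against 18.8, 10.8, 18, 21.4, 22.4 and 17.7 in the naive ones. In APP they stood at 7.27, 17.7 and 11.4 against 19.6, 23.1, 23.2, 12.2 and 19.9. In Tau the trained values were 13.5, 18.2, 9.05 and 9.88 and the naive values 15.8, 25.8, 27.1 and 15.2. In APP/Tau the trained values were 8.16, 13.7 and 14 and the naive ones 23.6, 18.5, 14.1, 18.1, 17.6 and 19.9, and only in this genotype did the ranges not overlap. The averaged log2 difference was -0.73 (standard error 0.14, 95% interval -1.01 to -0.45), or 0.602 of the naive level, and the 4 genotypes gave -0.87 in WT, -0.70 in APP, -0.73 in Tau and -0.64 in APP/Tau (edgeR adjusted p of their difference = 0.989). With library number as a covariate it was -0.58 (edgeR adjusted p = 1), and it was -0.72 in libraries numbered 1 to 18 and -0.55 in those numbered 19 to 36. Besides DESeq2, which called it (adjusted p = 3e-04), an additive model of genotype plus training did so (adjusted p = 0.0374).

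**Figure D2:**
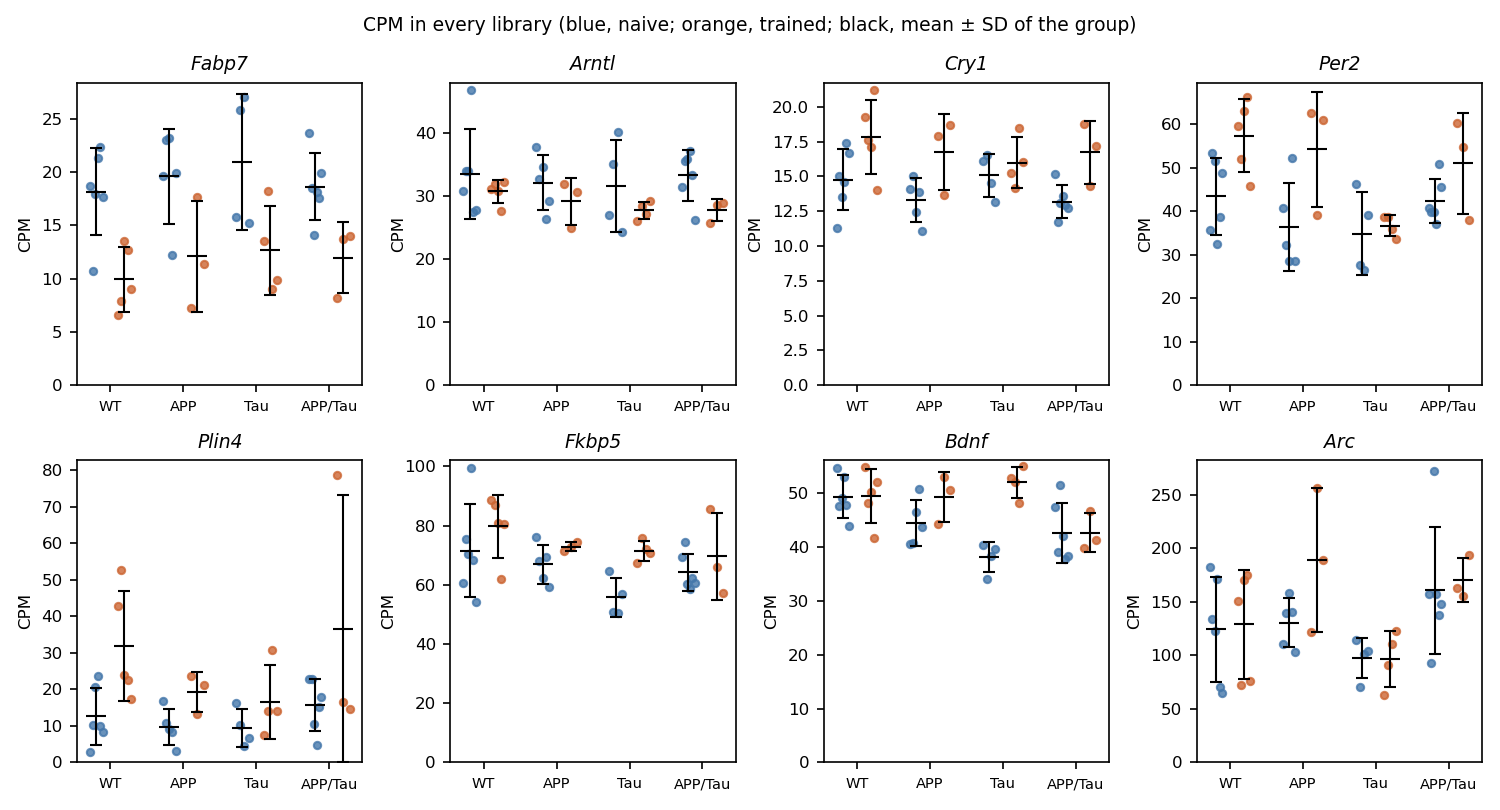
CPM (vertical axis) of 8 genes in each library by genotype, with naive libraries in blue, trained in orange, and the group mean ± SD in black (clipped at 0 for Plin4). For Fabp7 the trained mean lies below the naive mean in all 4 genotypes, while trained and naive values of Arc overlap in each genotype.

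The other 5 genes with the smallest p among those lower in trained mice were B3glct, Slc20a2, Ccdc60, Vsig10 and Sash1, and none passed the edgeR test. B3glct, a glucosyltransferase that modifies thrombospondin repeats, stood at 17.8 to 24.2 CPM in naive (median 21.4) and 17.5 to 21 CPM in trained libraries (median 19.1). All 15 trained libraries were below the naive median, with an averaged difference of -0.16 (standard error 0.03, adjusted p = 0.259). Slc20a2, a phosphate transporter, had medians of 56 CPM in naive and 48.9 CPM in trained libraries and a difference of -0.19 (adjusted p = 0.259), and 13 of 15 trained libraries lay below the naive median. The scaffold gene Sash1 differed by -0.19, with medians of 103 and 93.6 CPM. Vsig10, which encodes an immunoglobulin-domain protein, differed by -0.36 (medians 2.07 and 1.68 CPM) and Ccdc60, a coiled-coil gene, by -0.53 (medians 1.15 and 0.854 CPM). All 5 were lower in each of the 4 genotypes. Within libraries numbered 1 to 18 their differences ran from -0.12 (B3glct) to -0.38 (Ccdc60 and Vsig10), and within those numbered 19 to 36 from -0.09 (Slc20a2) to -0.36 (Ccdc60).

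Among genes higher in trained mice Pitpnm2, Fmo2, Cry1, Grin1os and Pdzd2 were among the 6 with the smallest p. Pitpnm2, a membrane-bound phosphatidylinositol transfer protein, stood at 187 to 268 CPM in naive (median 223) and 189 to 344 CPM in trained libraries (median 267). Its averaged difference was 0.23 (standard error 0.05, adjusted p = 0.259), and 13 of 15 trained libraries lay above the naive median. It was 0.30 in libraries numbered 1 to 18 but 0.01 in those numbered 19 to 36. Fmo2, a flavin-containing monooxygenase, had medians of 1.7 and 3.13 CPM and an averaged difference of 0.85 (standard error 0.19, adjusted p = 0.376), with 0.98 in WT, 1.03 in APP, 0.28 in Tau and 1.13 in APP/Tau. It was 0.49 with library number as a covariate, 0.85 in the lower and 0.45 in the higher numbers. Pdzd2, a PDZ-domain protein of dentate granule cells, differed by 0.26 (medians 45.9 and 53.9 CPM) and kept 0.31 and 0.29 in the lower and higher library numbers. Grin1os lies antisense to Grin1, the obligate NMDA receptor subunit, and differed by 0.11, with Grin1 itself at 0.10 (medians 481 and 506 CPM). Whether counting used strand is not given, so reads of these 2 genes cannot be told apart.

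Glucocorticoid-induced genes lay higher in trained mice as a group, with small differences that moved with library number. Of the 26 listed, 23 were above 0, the median difference was 0.16 against 0.0025 for all genes, and 12 had an unadjusted p under 0.05, all higher, against 3.72% of all genes. None passed the adjusted threshold. Plin4, a lipid droplet coat protein, had the smallest p, with 2.82 to 23.6 CPM in naive (median 10.2) and 7.37 to 78.8 CPM in trained libraries (median 21.1). Its averaged difference was 1.10 (standard error 0.29, adjusted p = 0.497), from 0.82 in Tau to 1.34 in WT, and 14 of 15 trained libraries lay above the naive median. The highest value, 78.8 CPM, came from APP/Tau trained 1, where the other trained APP/Tau libraries stood at 16.5 and 14.7.

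The receptor co-chaperone Fkbp5 stood at 50.5 to 99.5 CPM in naive (median 62.5) and 57.2 to 88.6 CPM in trained libraries (median 72.9), and 13 of 15 trained libraries lay above the naive median. It differed by 0.19 (95% interval 0.06 to 0.32, adjusted p = 0.565). Sgk1, a serum- and glucocorticoid-induced kinase, differed by 0.39 (0.02 to 0.75, medians 94.5 and 122 CPM), Tsc22d3, the leucine zipper GILZ, by 0.27 (0.07 to 0.47, medians 66.9 and 85.3), and Per1 by 0.22 (0.05 to 0.39, medians 74.6 and 85.1). These 3 values had unadjusted p-values of 0.0377, 0.0108 and 0.0132. Klf9, a transcription factor, stood above the naive median of 264 CPM in all 15 trained libraries (265 to 305), with a difference of 0.12. Outside the list, the transcription factor Klf15, named after its value was seen, differed by 0.22 (medians 33.6 and 40.2 CPM). Hif3a (0.40), Arrdc2 (0.34), Sult1a1 (0.19), Fam107a (0.16), Mt1 (0.16) and Bcl6 (0.15) made up the rest of the 12. Without APP/Tau trained 1 Sult1a1 was 0.12 and Fam107a 0.11, and without APP trained 2 Mt1 was 0.10. The count of 12 was 5 without APP/Tau trained 1 and 7 without Tau trained 3. The glucocorticoid receptor gene Nr3c1 itself differed by -0.07 (95% interval -0.14 to 0.0027, medians 99 and 97.8 CPM).

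These values differed between the sets of library numbers, where number and genotype cannot be told apart. In an additive model within libraries numbered 19 to 36, 23 of the 26 genes were above 0 and 10 had an unadjusted p under 0.05, against 2.68% of all genes in either direction, with Sgk1 at 0.80 and Tsc22d3 at 0.44. Within libraries numbered 1 to 18, 10 of 25 were above 0, 0 had an unadjusted p under 0.05 against 8.45% of all genes, and Sgk1 stood at -0.19 and Tsc22d3 at -0.02. With library number as a covariate the list median was 0.02 and 0 of the 26 had an unadjusted p under 0.05 in edgeR, against 2.6% of all genes. Hif3a was 0.05 and Arrdc2 -0.04 with the covariate. Plin4 was 0.94 and 0.71 in the lower and higher numbers and 0.54 with the covariate, and in none of the 3 was its unadjusted p under 0.05.

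**Figure D3:**
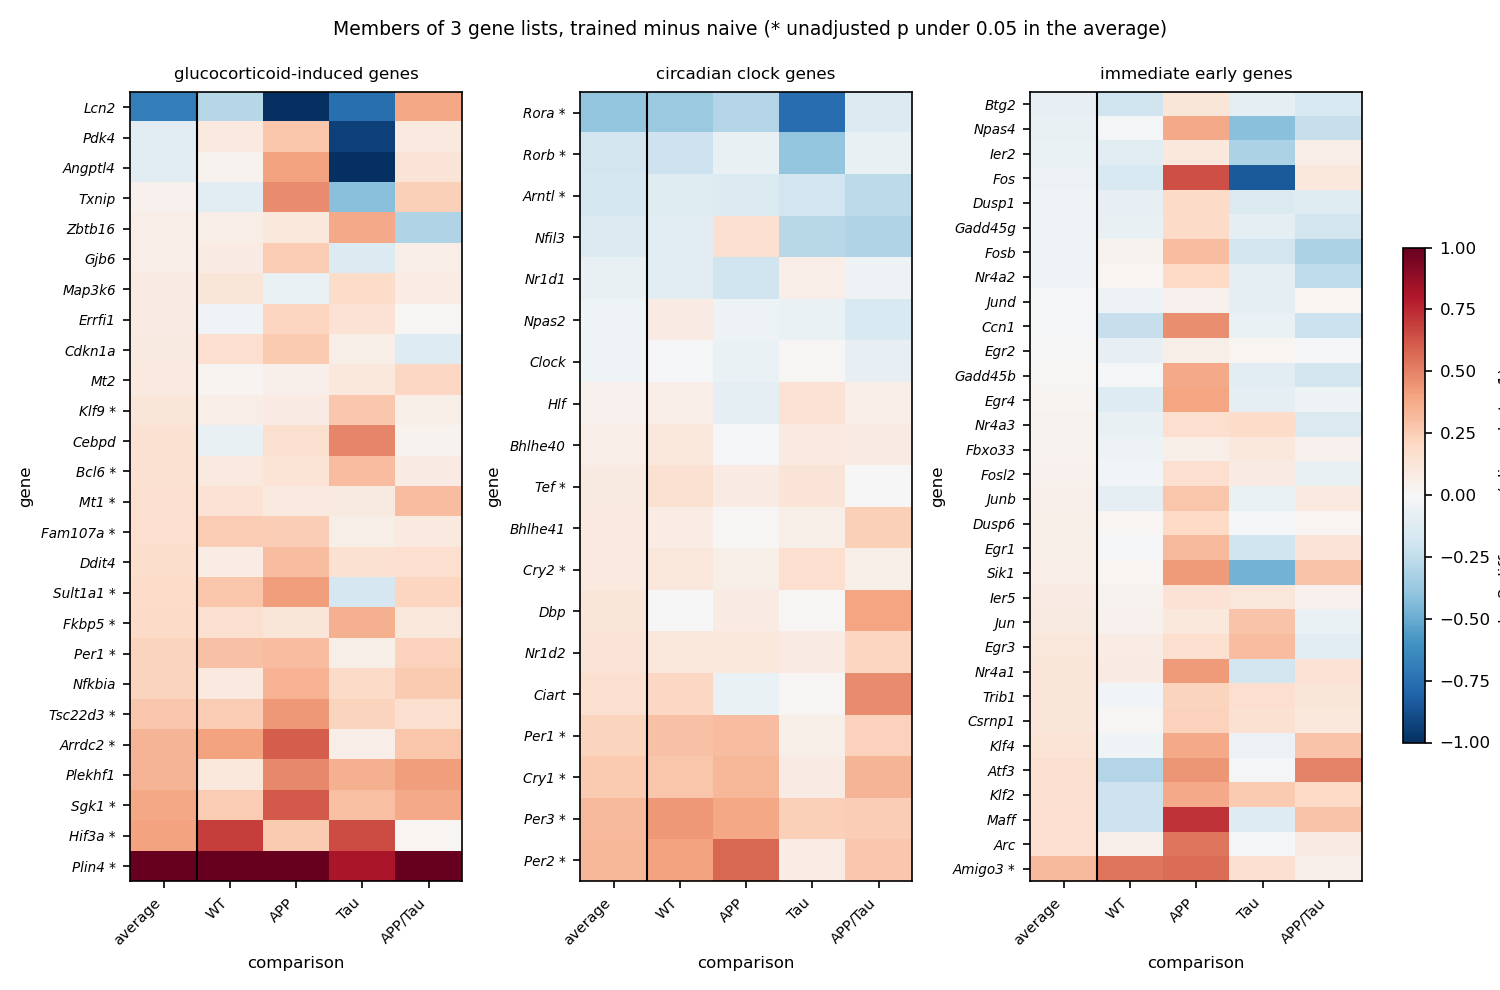
Log2 differences between trained and naive hippocampus for members of the glucocorticoid, clock and immediate early gene lists (rows), for the average and for each genotype (columns), in colour from blue (lower in trained) to red (higher). An asterisk marks an unadjusted p under 0.05 in the average. It was reached by 12 glucocorticoid genes, 9 clock genes and 1 immediate early gene, Amigo3, against 7.4% of all genes.

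Clock genes showed members on both sides of 0. Of 20 clock genes, 13 were higher and 7 lower in trained mice, and none passed the adjusted threshold. At an unadjusted p under 0.05 were 6 higher and 3 lower, against 3.72% and 3.68% of all genes. Among the repressors, Cry1 stood at 11.1 to 17.4 CPM in naive (median 13.9) and 13.7 to 21.2 CPM in trained libraries (median 17.2), and 14 of 15 trained libraries lay above the naive median. Its difference was 0.26 (standard error 0.06, adjusted p = 0.376), from 0.08 in Tau to 0.34 in APP/Tau. Per2 differed by 0.33 (medians 39.8 and 52 CPM), Per3 by 0.33 (45.4 and 58.1), Per1 by 0.22 and Cry2 by 0.10 (118 and 126), and the output regulator Tef by 0.09. The activator Arntl stood at 24.3 to 46.9 CPM in naive (median 33.4) and 24.9 to 32.3 CPM in trained libraries (median 29), with all 15 trained libraries below the naive median and a difference of -0.18. Its partner Clock differed by -0.04 (95% interval -0.13 to 0.05), the Rev-erb genes Nr1d1 by -0.07 (-0.18 to 0.03) and Nr1d2 by 0.13 (-0.02 to 0.27), and Dbp, a direct target of Clock and Arntl, by 0.12 (95% interval -0.24 to 0.48). The receptors Rora (-0.39) and Rorb (-0.19) were lower, but Rora is also on the thalamus list and Rorb on the neocortex list used below.

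Within libraries numbered 1 to 18, 7 of the 20 clock genes had an unadjusted p under 0.05, against 8.45% of all genes. Cry1 stood at 0.31, Per2 at 0.30, Per3 at 0.33 and Arntl at -0.21. Within those numbered 19 to 36 the same genes stood at 0.19, 0.20, 0.15 and -0.10 and 0 of 20 had an unadjusted p under 0.05, against 2.68% of all genes. With library number as a covariate Cry1 (0.24), Per2 (0.25), Per3 (0.25) and Arntl (-0.21) kept an unadjusted p under 0.05. The hour of tissue collection is not given in the labels, and a difference in hour between trained and naive mice cannot be told apart from training.

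The promoters of Fabp7, Cry1 and Per1 are shown because Fabp7 had the smallest p and Cry1 and Per1 are clock genes with an E-box, the site bound by the Clock and Arntl dimer. Each is the 250 bases before the RefSeq start on GRCm38.p6, which is not the mm39 build of the counts. Capitals mark CACGTG in Cry1 and Per1 (for Per1, the first of 2 promoters) and TGACCT in Fabp7. TGACCT is the reverse complement of AGGTCA, a half-site of nuclear receptors, Rev-erb and Ror receptors among them. The Per1 sequence shown also holds TGACCT, which is left unmarked. The marked sites begin 171, 60 and 166 bases before the start of Fabp7, Cry1 and Per1.
Fabp7, chr10:57784673-57784922, plus strand: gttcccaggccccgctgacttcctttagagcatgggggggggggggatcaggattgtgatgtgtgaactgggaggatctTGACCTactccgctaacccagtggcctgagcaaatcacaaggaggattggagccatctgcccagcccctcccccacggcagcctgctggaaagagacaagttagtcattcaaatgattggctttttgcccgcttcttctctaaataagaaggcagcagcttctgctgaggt
Cry1, chr10:85185055-85185304, minus strand: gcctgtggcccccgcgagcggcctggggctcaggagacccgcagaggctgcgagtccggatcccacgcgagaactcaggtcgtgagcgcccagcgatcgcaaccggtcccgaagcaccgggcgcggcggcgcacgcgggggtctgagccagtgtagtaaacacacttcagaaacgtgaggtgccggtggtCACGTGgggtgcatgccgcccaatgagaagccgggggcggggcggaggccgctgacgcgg
Per1, chr11:69098699-69098948, plus strand: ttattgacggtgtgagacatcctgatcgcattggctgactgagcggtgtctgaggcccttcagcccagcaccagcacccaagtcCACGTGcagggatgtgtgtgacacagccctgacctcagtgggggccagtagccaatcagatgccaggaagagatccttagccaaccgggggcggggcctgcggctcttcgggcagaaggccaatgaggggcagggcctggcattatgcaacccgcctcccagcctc

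Both strands were searched in all 32851 promoters of the table, which belong to 27025 genes. CACGTG occurred in 6.02% of all promoters and in a promoter of 6.86% of all genes, of 5 of the 17 clock genes that could be matched (29.4%; Bhlhe41, Ciart, Cry1, Per1 and Tef) and of 4 of 23 matched glucocorticoid genes (17.4%; Bcl6, Fkbp5, Per1 and Sgk1). AGGTCA occurred in 14% of all promoters and in a promoter of 15.8% of all genes, of 4 of the 17 clock genes (23.5%) and of 2 of the 23 glucocorticoid genes (8.7%). AGAACA, a glucocorticoid receptor half-site, occurred in 16.1% of all promoters and in a promoter of 18.2% of all genes, of 1 clock gene (5.88%) and of 5 glucocorticoid genes (21.7%; Bcl6, Fam107a, Sgk1, Sult1a1 and Tsc22d3). The start of CACGTG can share letters with the end of AGGTCA or AGAACA, and a match describes these letters only.

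Immediate early genes did not separate trained from naive libraries 2 h after the probe trial. Fos stood at 7.16 to 34.4 CPM in naive (median 16.1) and 3.55 to 36.8 CPM in trained libraries (median 15.1), with an averaged difference of -0.06 (95% interval -0.51 to 0.39). Arc stood at 65.2 to 272 CPM in naive (median 134) and 63.1 to 256 CPM in trained libraries (median 151), a difference of 0.17 (-0.16 to 0.49). Both ranges overlapped almost fully. Egr1 differed by 0.06 (-0.18 to 0.31), Npas4 by -0.07 (-0.34 to 0.20), Nr4a1 by 0.12 (-0.14 to 0.38) and Homer1 by 0.06 (-0.04 to 0.15). These intervals leave room for a Fos difference of up to 0.51 lower or 0.39 higher on the log2 scale. Of the 32 genes on the list 21 were above 0, and the median was 0.05. Only 1, Amigo3 at 0.33 (medians 2.13 and 2.45 CPM), had an unadjusted p under 0.05. For all genes 51.3% were above 0 and 3.72% were higher at such a p. Amigo3 was 0.19 without APP/Tau trained 1.

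The genotypes gave different values in these genes, but the interaction of training with genotype called 0 genes in edgeR. All 32 immediate early genes were higher in trained APP mice, with a median of 0.25. In WT 11 of 32 were higher (median -0.04), in Tau 11 (-0.06) and in APP/Tau 18 (0.03). Of all 25382 genes, 13757 were higher in APP, 12201 in WT, 12152 in Tau and 12887 in APP/Tau. The list score in APP was 0.02, 0.48 and 0.23 in the trained libraries and ran from -0.19 to 0.17 in the naive ones. For Fos the 4 genotypes gave -0.15 in WT, 0.65 in APP, -0.84 in Tau and 0.11 in APP/Tau, with an edgeR adjusted p of 0.837 for their difference. Within numbers 1 to 18 there were 6 of 32 above 0 (median -0.07), and within numbers 19 to 36 there were 31 of 32 (median 0.18). The lower numbers hold no naive APP library and the higher ones no trained Tau library. Library number and genotype therefore cannot be told apart in this split.

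Of 20 delayed activity-regulated genes 18 were above 0, with a median of 0.06. Bdnf and Ptgs2 had an unadjusted p under 0.05, both higher, against 3.72% of all genes. Bdnf, the neurotrophin linked to synaptic plasticity, stood at 34.1 to 54.7 CPM in naive (median 43.7) and 39.9 to 55 CPM in trained libraries (median 50.3). Its averaged difference of 0.15 (standard error 0.05, unadjusted p = 0.0025, adjusted p = 0.522) was farthest from 0 in Tau, where trained libraries at 52.8, 52.1, 48.1 and 55 CPM did not overlap naive ones at 40.4, 34.1, 38.4 and 39.6. The difference was 0.45 in Tau, 0.15 in APP, 0.0021 in WT and -0.00017 in APP/Tau (edgeR adjusted p of their difference = 0.638). In Tau the value of 55 CPM came from Tau trained 4, whose Prnp goes against its label. Library number and training do not overlap in this genotype. Bdnf was 0.03 in libraries numbered 1 to 18, 0.14 in those numbered 19 to 36 and 0.12 with library number as a covariate. Ptgs2, which encodes cyclooxygenase 2, stood at 0.56 in Tau, 0.17 in APP, 0.02 in APP/Tau and -0.11 in WT. Vgf, a neuropeptide precursor named after its value was seen, stood above the naive median of 197 CPM in all 15 trained libraries (202 to 271), with a difference of 0.11 (95% interval -0.0041 to 0.21).

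Of 20 heat shock and chaperone genes 18 were above 0 by a median of 0.03. An unadjusted p under 0.05 was seen in 4, all higher, against 3.72% of all genes. The inducible Hsp70 genes Hspa1a and Hspa1b, near-identical copies whose reads can be split between them, differed by 0.25 (95% interval 0.07 to 0.43, medians 10.4 and 11.1 CPM) and 0.31 (medians 11.6 and 12.6). Without APP trained 3 they were 0.16 and 0.15, and 1 gene of the list had an unadjusted p under 0.05. Without Tau naive 2 the count was 2. The co-chaperone Dnajb1 differed by 0.15 and Hspa2 by 0.10, while the abundant Hsp90aa1 stood at 0.0074 and Hspa8 at -0.04. The cold-inducible RNA-binding genes, which track body temperature, gave 0.23 for Rbm3 (95% interval -0.04 to 0.50) and -0.05 for Cirbp (-0.23 to 0.12). Herpud1 led the 18 genes of the unfolded protein response with 0.09, and 0 of them had an unadjusted p under 0.05 in edgeR.

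RNA splicing factors were above 0 in 28 of 30 members, against 51.3% of all genes, with a median of 0.06. An unadjusted p under 0.05 was seen in 8, all higher, against 3.72% of all genes. They were Hnrnpm (0.10, medians 103 and 111 CPM), Ddx5 (0.07), Rbm25 (0.13), the splicing kinase Clk1 (0.32), Hnrnpa2b1 (0.09), Srsf1 (0.14), Srsf2 (0.13) and Srsf7 (0.12). Within libraries numbered 1 to 18 the count was 14 higher, against 5.45% of all genes, with a median of 0.10. Within those numbered 19 to 36 it was 1 higher and 1 lower, against 1.14% and 1.54%, with a median of 0.02. With library number as a covariate the count was 2 higher, against 1.11% of all genes. It was 1 without APP, 4 without APP trained 1 and 13 without APP trained 2.

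Synaptic and signalling lists gave medians near that of all genes. Of 23 postsynaptic scaffold and kinase genes 20 were above 0 with a median of 0.05. An unadjusted p under 0.05 was seen in 5, all higher, against 3.72% of all genes. They were Camk2b (0.11, medians 1146 and 1223 CPM), Kalrn (0.12), Dlg3 (0.07), Synpo (0.10) and Dlgap1 (0.09). By genotype, 22 of the 23 were above 0 in Tau (median 0.17), 15 in WT (0.05), 12 in APP (0.005) and 5 in APP/Tau (-0.05). With library number as a covariate 0 of the 23 had an unadjusted p under 0.05 in edgeR, against 2.6% of all genes in either direction, and Camk2b was 0.03. The count of 5 was 1 without APP/Tau trained 2 and 3 without any 1 of Tau trained 2, APP/Tau naive 6 and Tau naive 2. Among 22 glutamate receptor genes the median was 0.01. Gria2 (0.13) and Grin1 were higher, and Grm3 (-0.13), Gria4 (-0.09) and Grin3a (-0.11) lower, at an unadjusted p under 0.05. The shares of all genes at such a p were 3.72% higher and 3.68% lower. The count of 3 lower receptor genes was 0 without APP/Tau trained 1 and 1 without any 1 of 11 other libraries. GABA receptor genes had a median of -0.01, led by Gabra2 at -0.27 (95% interval -0.55 to 0.0071). Syn3 (0.15) among presynaptic genes, the T-type calcium channel Cacna1h (0.24) among ion channels, the kinase Map2k1 (0.07) in CREB and MAPK signalling and the chromatin remodeller Arid1b (0.12) had the smallest p of their lists, and Syn3 was 0.09 without APP/Tau trained 3. Pvalb, the marker of the Cre-expressing interneurons, differed by 0.01 (95% interval -0.51 to 0.53, 2.59 to 20.7 CPM in naive and 2.76 to 19 CPM in trained libraries), and Gad1, which makes GABA, by 0.09.

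Growth-factor, metabolic and glial lists likewise passed no gene. The neurogenesis marker Dcx differed by -0.17 (medians 21.7 and 19.7 CPM). Of 53 nuclear genes of oxidative phosphorylation 51 were above 0 by a median of 0.03, led by Ndufv1 at 0.09. In WT only 2 of the 53 were above 0 (median -0.04), against 46 in APP, 44 in Tau and 48 in APP/Tau. Of 13 mitochondrially encoded genes, 12 were below 0 by a median of -0.12, led by ND2 at -0.14. The library labelled WT trained 5 had the lowest mitochondrial score, -1.11 against -0.56 to 0.53 in the other 35, and also the lowest endothelial (-1.10) and mural (-1.12) scores. Without it the mitochondrial median was -0.08. Ndufv1 was 0.05 without APP trained 2. Cytosolic ribosomal proteins had a median of 0.01 with Rplp0 at 0.30, and cholesterol synthesis genes -0.02 with Idi1 at -0.10. Interferon-stimulated genes were below 0 in 17 of 18 members by a median of -0.12, led by Ifit2 at -0.13, but all 18 were above 0 in APP/Tau. Without Tau naive 2 that median was 0.05 and Ifit2 stood at -0.08. The median was -0.03 without APP/Tau naive 6, -0.25 without APP/Tau trained 1 and -0.21 without Tau trained 3. The astrocyte gene Fgfr3 differed by 0.15, whereas Aqp4 (-0.25) and Gja1 (-0.13) were lower at an unadjusted p under 0.05. Tnc (-0.28) led the extracellular matrix list, Opalin (-0.37) the myelin list, Olig1 (-0.12) the precursor list, Kdr (-0.22) the endothelial list, P2ry13 (-0.15) the homeostatic and Ch25h (-0.31) the disease-associated microglial list, Dcn (-0.32) both the mural and fibroblast list and the CA1 list, and Bpgm (-0.04) the blood list. Cdh24 (0.25) led the CA2 and CA3 genes, and Rsph4a (-0.17) the motile cilia list.

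**Figure D4:**
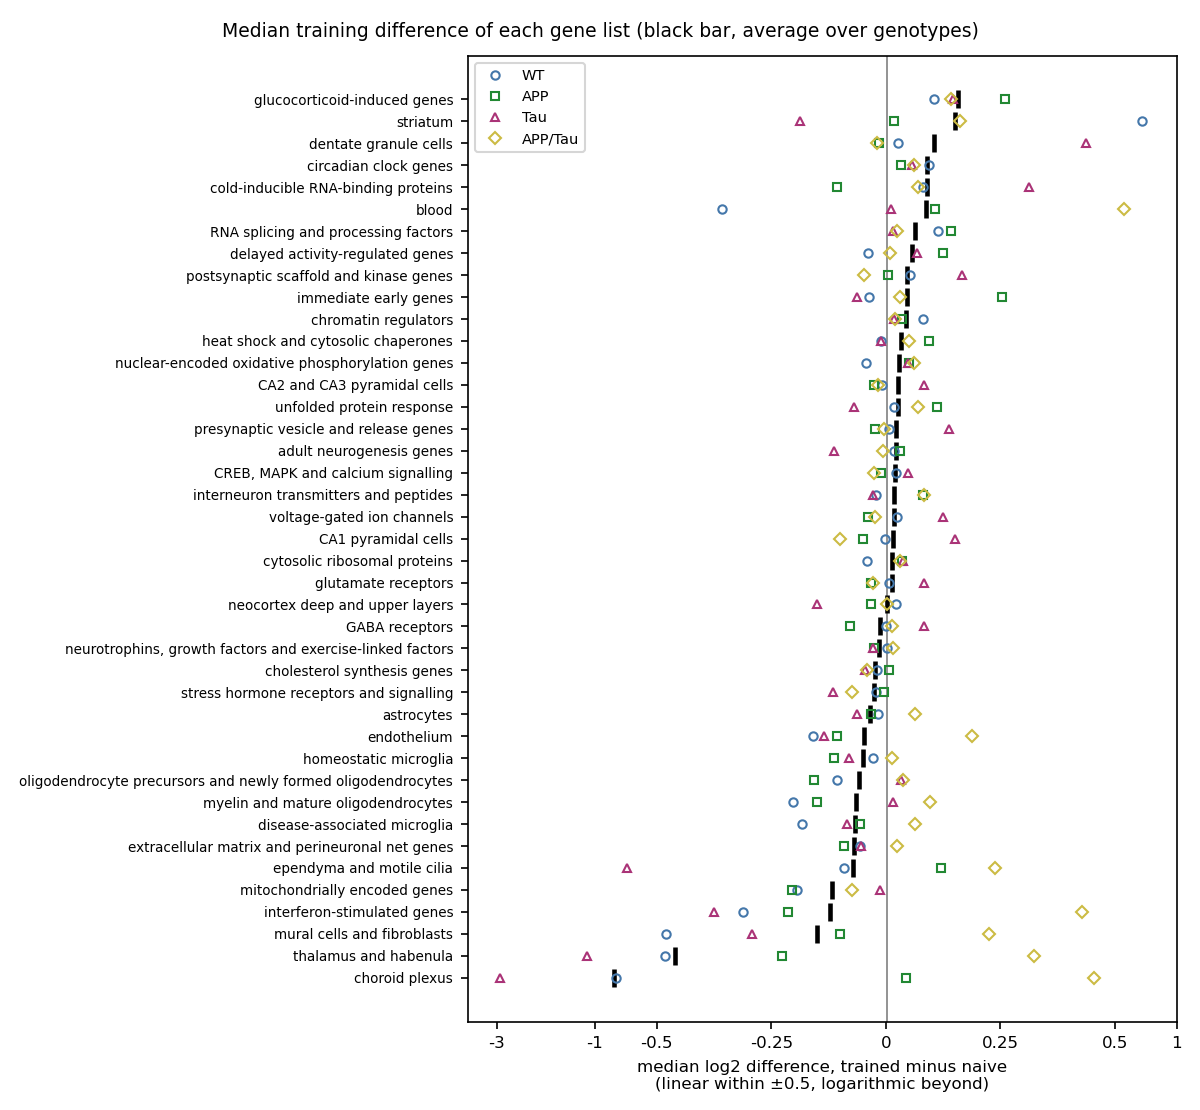
Median log2 difference between trained and naive hippocampus over the members of each of 41 gene lists, as the average over genotypes (black bars) and in each genotype (symbols), on an axis that is linear within ±0.5 and logarithmic beyond. The grey line is the median of all genes, 0.0025, and the medians run from -0.81 for choroid plexus to 0.16 for glucocorticoid-induced genes, with the 4 genotypes on both sides of 0 for most lists of neighbouring tissue.

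Markers of tissue that borders the hippocampus gave the list medians farthest from 0. In bulk tissue fewer cells of a type and less RNA per cell cannot be told apart. All 16 choroid plexus genes were lower in trained libraries by a median of -0.81, with 0 at an unadjusted p under 0.05 in edgeR. DESeq2 gave such a p to 1 of them, Sostdc1, at -0.82. Ttr, its most abundant product, stood at 23.7 to 3324 CPM in naive (median 1331) and at 38.9 to 4348 CPM in trained libraries (median 82.9). The score of the list ran from -2.29 to 2.36 in naive and -2.15 to 2.40 in trained libraries. The list median was -2.89 in Tau, -0.79 in WT, 0.04 in APP and 0.46 in APP/Tau, and it was 0.03 with library number as a covariate.

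All 12 thalamus and habenula genes were lower by a median of -0.46, and 5 had an unadjusted p under 0.05, against 3.68% of all genes. They were Plekhg1 (-0.49, medians 29 and 22.4 CPM), Prkcd (-0.77, 38 and 22.6), Ntng1 (-0.24), Lef1 (-0.50) and Rora. The list median was -1.09 in Tau, -0.48 in WT, -0.23 in APP and 0.32 in APP/Tau. In libraries numbered 19 to 36 the list median was 0.23, and with library number as a covariate it was -0.18. The count of 5 was 10 without APP/Tau trained 3 and 8 without APP trained 3. Striatal genes were above 0 in 11 of 12 by a median of 0.15, led by Adora2a at 0.59, which stood at 1.06 to 2.63 CPM in naive and 1.09 to 26 CPM in trained libraries. Within WT, which holds the library labelled WT trained 4, the striatal median was 0.68. Without that library the averaged striatal median was -0.03 and Adora2a stood at 0.09.

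All 12 dentate granule cell genes were above 0 by a median of 0.11, against 51.3% of all genes above 0. Pdzd2, Lct (0.27, medians 29.7 and 38.5 CPM) and Dsp (0.26, medians 38.3 and 45.6) had an unadjusted p under 0.05. The share of all genes higher at such a p was 3.72%. The dentate median was 0.44 in Tau, 0.03 in WT and -0.02 in both APP and APP/Tau. The averaged median was 0.06 without APP/Tau trained 2, and 6 genes had an unadjusted p under 0.05 without WT trained 4. CA1 genes had a median of 0.02 and CA2 and CA3 genes 0.03. The part that these dissection markers have in the values of other genes was not tested beyond the fits with their scores as covariates, which called 0 genes each. With the choroid plexus score as a covariate Fabp7 had an adjusted p of 0.126, and with the thalamus and striatum scores 0.279.

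**Figure D5:**
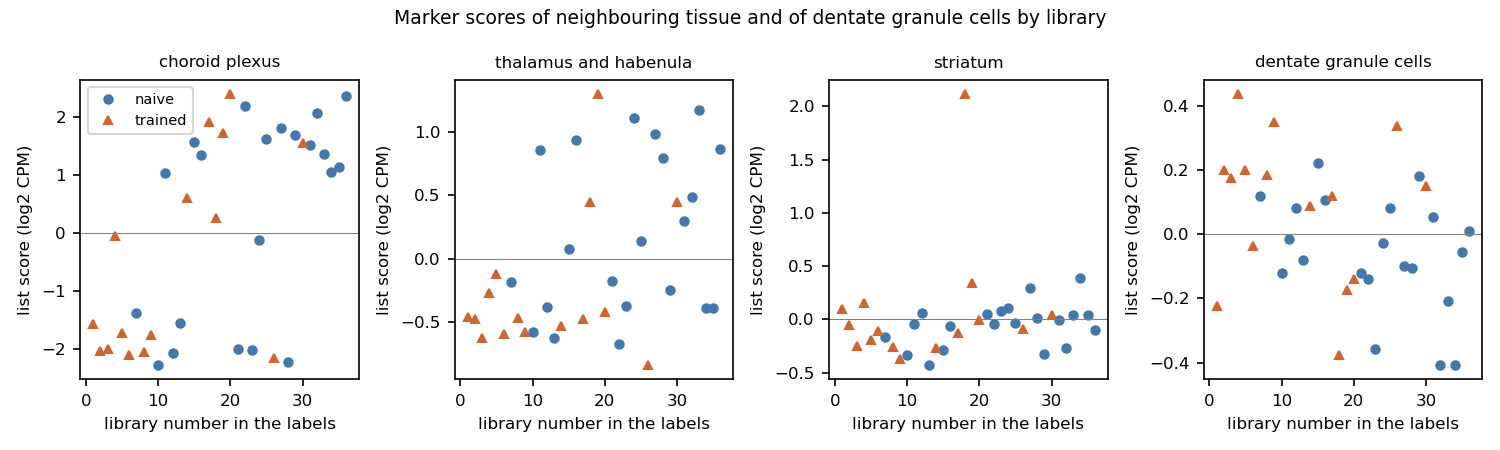
Scores (vertical axis, mean log2 CPM of the list less its mean over libraries) of choroid plexus, thalamus, striatum and dentate granule cell markers against library number (horizontal axis), with naive libraries as blue circles and trained as orange triangles. The choroid score lies at or below -1.38 in 15 libraries, at or above 1.03 in 17 and between -0.13 and 0.61 in 4, and the striatal score of WT trained 4 (library 18) stands at 2.12.

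The genotypes were averaged, so the test of their difference is given too. The interaction of training with genotype called 0 of 25382 genes in edgeR (0%, smallest adjusted p = 0.59), with 1695 genes (6.68%) at an unadjusted p under 0.05, and 8 genes in DESeq2. Fancf, a Fanconi anaemia core protein, had the smallest interaction p among genes that averaged 0 or more in log2 CPM and had no predicted name, with -0.32 in WT, -0.19 in APP, 0.53 in Tau and 0.25 in APP/Tau at a naive median of 2.71 CPM. The other 5 of the 6 smallest under these conditions were Zfp39, Mfn1, Zc2hc1c, Ercc3 and Cfap52. Mfn1, which fuses mitochondrial outer membranes, stood at 0.19 in APP and -0.20 in Tau, the DNA repair helicase gene Ercc3 at -0.24 in APP and 0.25 in Tau, and the zinc-finger gene Zfp39 at -0.20 and 0.28. Zc2hc1c stood at -0.66 and the cilia gene Cfap52 at -1.36 in Tau.

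Within single genotypes edgeR called 0 genes in each. The counts at an unadjusted p under 0.05 were 1312 in WT (5.17%, with 2.58% higher and 2.58% lower in trained), 1094 in APP (4.31%, 2.7% higher and 1.61% lower), 3517 in Tau (13.9%, 6.71% higher and 7.15% lower) and 688 in APP/Tau (2.71%, 1.47% higher and 1.24% lower). DESeq2 called 1 in WT, 0 in APP, 423 in Tau and 0 in APP/Tau. The 4 trained Tau libraries are numbered 3, 4, 8 and 9 and the 4 naive ones 11, 33, 34 and 36, so library number and training do not overlap in Tau. They include the library labelled Tau trained 4, whose Prnp goes against its label.

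Each genotype was also set beside the average of the 3 others, which shares no library with it. No gene was called in 3 genotypes in any of the 4 cases, so the 500 genes with the smallest p were followed. Of these 500, 360 (72%) had the same direction in WT, against 55.4% of all genes, and 300 (60%) in APP, against 51.4%. In Tau it was 219 (43.8%, against 47.9%) and in APP/Tau 239 (47.8%, against 47.5%). These shares are a description, since genes are not independent and library number runs through all genotypes.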

How the data were processed

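Libraries were grouped by the genotype and training state in their titles into 8 groups. The table deposited by the authors holds whole-number raw counts for 50559 gene symbols. Trimmomatic 0.39 and the mm39 build come from the submitters' processing notes. Per the labels' protocols, 100 ng of RNA entered a poly(A) library preparation, sequenced paired-end at 150 bp to a planned 40 M reads. For the aligner, the counting tool and the annotation, names were not given in the sources used here.

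Counts were analysed with edgeR 4.0.16 in R 4.3.3. Genes passing filterByExpr by group (minimum count 10, minimum total 15; 25382 of 41519 with a count) were scaled by TMM and fitted with a mean per group (glmQLFit, robust). The contrast was the mean over genotypes of trained minus naive, two-sided, with Benjamini-Hochberg adjustment over all genes tested and a threshold of 0.05. The interaction was an F test with 3 degrees of freedom. Other settings used limma 3.58.1, DESeq2 1.42.0 and sva 3.50.0. CPM are counts per M (mega) counts of the TMM-scaled total, and scores use log2 CPM with a prior count of 2. The fit was tested on simulated data. Depth was 69.2 to 124.8 M counts, and precision is given as 95% intervals.

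The rule for named genes took 16 genes known for learning, stress or temperature, the 6 smallest p in each direction among genes averaging 0 or more in log2 CPM and without a predicted name, the member of each of 41 lists with the smallest p, and the 6 smallest interaction p under the same level and name conditions. Of 751 distinct list members 750 were tested. The comparison, the lists and the rule were chosen with earlier results of these data known. Of 15 pairs of same-numbered libraries 6 correlated above 0.1, which does not settle whether the replicate numbers in the titles pair the samples. The number is not stated to mark a litter, day or batch, so the main fit held no block. No library pair was identical. A few genes that the rule or the lists hold are not reported here by name or drawn. Promoters are RefSeq sequences on GRCm38.p6, matched by symbol.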

Additional observations from a re-analysis of the deposited data

Results flagged for a closer look

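In 34 named genes and the 6 groups of 4 to 10 libraries, 204 checks were made of whether the highest or lowest library stood far from the rest of its group, judged by Dixon's ratio. Chance alone gives about 1 in 20, and 15 were found. Among activity genes, Fos stood at 34.4 CPM in APP naive 4, Arc at 272 CPM in APP/Tau naive 3, and Npas4 at 19 CPM in Tau trained 4 and 30.2 CPM in WT trained 4. Dbp, a clock output gene, stood at 97.1 CPM in WT trained 4, and the mitochondrial fusion gene Mfn1 at 85.5 CPM in the same library. The heat shock gene Hspa1a stood at 16.8 CPM in APP naive 1, 13.9 CPM in WT naive 2 and 18 CPM in WT trained 3. Among genes with the smallest p, Pitpnm2 stood at 265 CPM in APP naive 4, Pdzd2 at 64.5 CPM in Tau trained 2, B3glct at 20.9 CPM in WT trained 5 and Sash1 at 133 CPM in Tau naive 2. Ercc3 stood at 30.8 CPM in WT naive 1 and Cfap52 at 2.18 CPM in WT trained 3.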

How the results depend on the processing

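The count of 0 genes for training averaged over genotypes was also reached with RLE size factors, no filter, limma-voom, the replicate block, library number, choroid plexus score, or thalamus and striatum scores as covariates, either set of 18 libraries, and without any one genotype. It was 7 with DESeq2, 1 with an additive model of genotype plus training, and, in settings chosen after seeing the data, 3 with 7 surrogate variables (Pde11a and Pitpnm2 among them) and 0 without both Tau trained 4 and WT trained 4. Leaving out each library in turn gave 0 to 2 genes, with 2 (B3glct and Fabp7) without WT naive 2 and 1 (Fabp7) without APP trained 2. DESeq2 called 8 genes in the interaction, 1 within WT and 423 within Tau. Within WT, 2 were called without Tau trained 4 and WT trained 4, and leaving out single libraries gave 0 to 2. Within Tau, leaving out single libraries gave 0 to 175, with 175 without Tau naive 1, 70 without WT trained 4, 37 without APP/Tau naive 6 and 1 without WT trained 2. The cause was not tested.

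With the replicate block, the count at an unadjusted p under 0.05 was 1255 against 1879, and Pvalb stood at -0.042. Counts of unadjusted p under 0.05 were 659 with library number as a covariate, 646 in libraries numbered 19 to 36, 1927 in those numbered 1 to 18 and 2629 without a filter, and 1482 to 2433 when single libraries were left out. Over all 26 listed glucocorticoid genes the count of 12 higher at such a p was 5 with the block and 0 with library number as a covariate. The shares of all genes higher at such a p were 2.66% and 1.11% in these fits. Leaving out single libraries gave 5 to 16, with 5 without APP/Tau trained 1. Of the 12 genes themselves, 5 to 12 kept such a p when single libraries were left out. For clock genes the count of 9 became 8 to 10 when single libraries were left out.

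Among the 69 genes taken by the naming rule, 3579 of 3655 values kept their direction and side of the threshold. Of the rest, 12 passed it and 64 changed sign, all of these 64 in genes that did not pass. With library number as a covariate Npas4 was 0.011, Egr1 -0.0085, Nr4a1 -0.040, Rsph4a 0.014, Zc2hc1c 0.0029 and Ercc3 -0.00065. In libraries numbered 1 to 18 Arc was -0.016, Egr1 -0.063, Homer1 -0.063, Sgk1 -0.19, Tsc22d3 -0.024, Cirbp 0.065 and Mfn1 -0.015. In those numbered 19 to 36 Fos was 0.45, Npas4 0.15, Rbm3 -0.14, Grin1os -0.0044, Amigo3 -0.063, Rsph4a 0.22, Cdh24 -0.15, Fancf -0.085, Zfp39 -0.081, Zc2hc1c 0.22 and Ercc3 -0.11. Without WT Pvalb was -0.023 and Mfn1 -0.0055. Without APP Egr1 was -0.031, Cirbp 0.0040, Pvalb -0.011 and Mfn1 -0.050. Without Tau Fos was 0.20, Npas4 0.043, Map2k1 -0.00092, Rsph4a 0.0095, Fancf -0.087, Zfp39 -0.068, Zc2hc1c 0.15 and Ercc3 -0.072. Without APP/Tau Pvalb was -0.037 and Ercc3 -0.00061. Ercc3 was -0.0062 with the thalamus and striatum scores and -0.0033 with surrogate variables, where Zc2hc1c was 0.035. Egr1 was -0.024 without Tau trained 4 and WT trained 4. When single libraries were left out, Pvalb ran from -0.083 to 0.12, Fos from -0.17 to 0.034 and Ercc3 from -0.0077 to 0.025.

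Trained groups of 3 libraries in APP and APP/Tau limit the within-genotype values, library number and training cannot be fully told apart, and intervals widen at low counts.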

Other observations

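The following genes lie outside the naming rule and were chosen after their values were seen, so they are given as values only. Vipr2, the VPAC2 receptor for vasoactive intestinal peptide, stood at 0.501 to 5.73 CPM in naive (median 1.97) and 0.327 to 2.39 CPM in trained libraries (median 0.801), an averaged log2 difference of -1.38 (95% interval -2.08 to -0.67, adjusted p = 0.446). It was -1.59 in libraries numbered 1 to 18 and -0.74 in those numbered 19 to 36. It was -0.54 with the thalamus and striatum scores as covariates and -0.62 with surrogate variables, and the thalamus and habenula list had a median of -0.46 in the same comparison. Aqp9, an aquaglyceroporin of astrocytes, differed by -0.42, with medians of 1.47 and 1.1 CPM and 14 of 15 trained libraries below the naive median. Nos1, the neuronal nitric oxide synthase, differed by -0.23 (medians 138 and 119 CPM), with -0.51 in APP and -0.07 in WT, and it held -0.19 and -0.26 in the lower and higher library numbers.

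Mmp14, a membrane-bound matrix metalloproteinase, differed by -0.34 (medians 20.8 and 16 CPM), and the cell adhesion gene Mcam by -0.30 (16 and 11.5). S100a16, a calcium-binding protein, differed by -0.28 (42.7 and 36.3 CPM). Baiap2, the actin regulator IRSp53 of dendritic spines, stood at 205 to 314 CPM in naive and 213 to 355 CPM in trained libraries and differed by 0.17, with 0.24, 0.25 and 0.23 in WT, APP and Tau and -0.04 in APP/Tau. Sirt1, a deacetylase with a part in the clock, differed by 0.13 (medians 16.1 and 17.2 CPM), with 14 of 15 trained libraries above the naive median. No gene in this section passed the test over all genes.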
